A study of Mus musculus with 15 samples.

Results

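The lysosome of cardiomyocytes was followed through 40 genes: the subunits and accessory proteins of its proton pump, its cathepsins and its main membrane glycoproteins. They were taken by name from a table of read counts per gene, as every symbol that starts with Atp6v or Atp6ap, the cathepsins A, B, C, D, E, F, H, K, L, O, S and Z, and Lamp1 and Lamp2, and they are 40 of 23337 genes. The name rule uses no measured value, but the genes were chosen with earlier results of these data known. The 40 genes comprise 13 of the pump's V1 sector, 9 of its V0 sector, 3 accessory genes, 12 cathepsins, the pair of LAMP genes and 1 pseudogene of the ring subunit, Atp6v0c-ps2. Of the 40, 29 had enough counts to be tested. The same 29 passed the filter on low counts within the libraries of each group alone, so that none was tested only because 1 group was high. The other 11 are described with their sectors.

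RNA came from sorted heart muscle cells of mice carrying Rosa-Cas9GFP, so that Cas9 and GFP were shared by all groups. Each mouse had received an adeno-associated virus (AAV), a viral gene carrier, at P1 (postnatal day 1), and cells were collected at 4 weeks of age after digestion of the heart by perfusion. The vector carried GFP alone (GFP group), ATF4 linked to GFP by a 2A peptide (AAV-ATF4-2A-GFP, ATF4 group) or DDIT3 in the same way (DDIT3 group), with 5 libraries in each group. The promoter of the vectors and the number of hearts behind a library are not given in the sources used here. ATF4 is a transcription factor that cells make during amino acid shortage and endoplasmic reticulum stress, and DDIT3, also known as CHOP, is a factor induced later in the same stress. The question posed by the design is what each factor changes in heart muscle cells when it is overexpressed.

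Libraries held 6217744 to 8317249 counts. Atf4 stood at 71.2 ± 12.2 CPM (counts scaled to library size, mean ± SD, n = 5) in GFP, 400 ± 79.5 in ATF4 and 66.5 ± 22.9 in DDIT3. Ddit3 stood at 15.6 ± 1.28, 29.5 ± 7.62 and 844 ± 180 CPM in the same order, so both overexpressed genes were high in the libraries labelled for them. Ddit3 was also called higher in ATF4 than in GFP (edgeR log2 fold change 0.91, adjusted p = 0.00061). Summed CPM of 10 cardiomyocyte markers lay between 89290 and 153400 in every library. SMART-Seq2 is named in the labels of 14 libraries and SMART-Seq3 in that of GFP replicate 5. Without this library 14 of the genes were called in ATF4 against GFP, as with it. Judged by Xist and Y-linked genes, 2 GFP libraries (replicates 4 and 5), 1 ATF4 library (replicate 2) and 1 DDIT3 library (replicate 2) were female.

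Lysosomes break down proteins, lipids and sugars delivered by endocytosis and autophagy, and heart muscle, whose cells are rarely replaced, depends on them to clear worn mitochondria and protein aggregates. Their acid interior is made by the vacuolar ATPase, a rotary proton pump: the V1 sector in the cytosol splits ATP, and its rotor turns a ring in the V0 sector of the membrane that carries protons inward. Cathepsins are the proteases that work in this acid. The LAMP proteins coat the inner face of the membrane, and loss of LAMP2 causes the cardiomyopathy of Danon disease. Many of these genes are targets of TFEB and TFE3, transcription factors that bind E-box sequences, whereas ATF4 binds, with C/EBP partners, to a different element.

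In the ATF4 group, 11 of the 29 tested genes were higher than in GFP and 3 were lower, with 15 not called (edgeR quasi-likelihood test, Benjamini-Hochberg adjusted p below 0.05). Over all 11814 tested genes, 16.5% were called higher and 15.6% lower in this comparison. As the genes were chosen with earlier results known, these shares are given side by side only. The median log2 fold change was 0.24 over the 29 genes and 0.02 over all tested genes. The higher calls were spread unevenly over single genes: 4.30 ± 0.21 (log2 fold change ± SE) for Ctsk, 2.37 ± 0.10 for Atp6v1h, 2.06 ± 0.18 for Ctsz and 1.23 ± 0.13 for Ctsc, against at most 0.83 for the other 7. The lower calls were Ctsh, Ctsf and Atp6v1d. These are bulk libraries, in which fewer cells of a type and less RNA per cell cannot be told apart. In the DDIT3 group, 1 of the 29 was called higher and 1 lower, against 0.525% and 0.339% of all tested genes, with a median of 0.06.

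**Figure D1:**
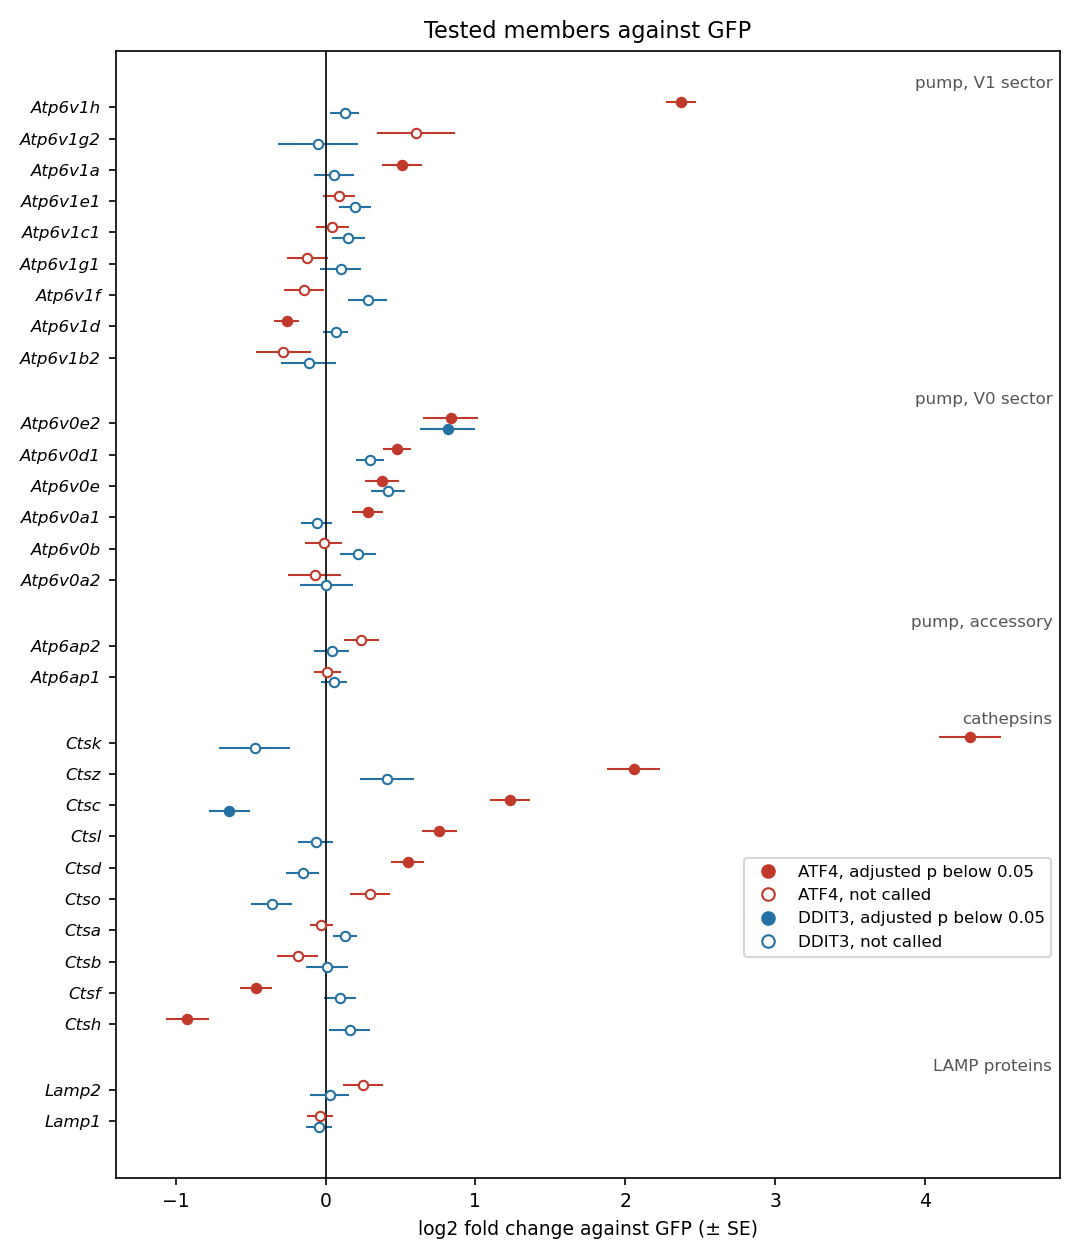
Log2 fold change against GFP (x axis, with SE) of each of the 29 tested genes (y axis, grouped by role) in ATF4 (red) and DDIT3 (blue), where filled points had an adjusted p below 0.05. Ctsk and Atp6v1h stand to the right of all other genes with ATF4, at 4.30 and 2.37, while with DDIT3 the values lie between -0.64 and 0.82.

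The V1 sector is built from a ring of A and B subunits, which bind ATP, a rotor of D and F, stalks of C, E and G, and the H subunit, which holds V1 to V0 and inhibits ATP splitting in free V1. Of 13 V1 genes, 9 were tested, and ATF4 against GFP called 2 higher (Atp6v1h and Atp6v1a), 1 lower (Atp6v1d) and 6 neither. These are 22.2% and 11.1%, near the 16.5% and 15.6% of all tested genes. Atp6v1h (chr1:5070018-5162529, plus strand, mm10) stood at 42.2, 44.6, 39.8, 47.1 and 44.9 CPM in GFP replicates 1 to 5. Its ATF4 libraries held 228, 229, 189.8, 252 and 234 CPM and its DDIT3 libraries 48.7, 42.2, 44.3, 53.9 and 49.9. Every ATF4 library was thus above every other library, by a fitted factor of 5.18 over GFP (2.37 ± 0.10, adjusted p = 2.49e-12) and of 4.75 over DDIT3 (2.25 ± 0.10, adjusted p = 4.96e-12). The gene overlaps Rgs20 on the opposite strand, and the library kit does not mark strand, but Rgs20 itself had at most 1 count in any library. Atp6v1b2, Atp6v1e1, Atp6v1g2, Ctsa, Ctsb and Lamp1 also overlap protein-coding genes of the opposite strand, and reads in those stretches are uncertain. On their own strand, Ctsd overlaps the protein-coding gene Gm49369 and Ctsl the processed pseudogene Gm49230. Neither symbol is among the counted genes, and reads in these stretches are uncertain too.

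The H subunit, scarce beside its partners in GFP, stood above most of them in ATF4. Per kilobase of the deposited gene length, its level was 0.379 ± 0.0274 times (mean ± SD, n = 5) the median of the other 8 tested V1 genes in GFP, 2.23 ± 0.475 times in ATF4 and 0.406 ± 0.0188 times in DDIT3. Among the 17 tested pump genes, ranked by CPM per kilobase, Atp6v1h was 13th in GFP at 22.1 ± 1.41, 13th in DDIT3 at 24.2 ± 2.35, and 2nd in ATF4 at 115 ± 11.5, behind Atp6v1e1 at 163 ± 24.5. Its neighbours in ATF4, Atp6v0b at 104 ± 19.6 and Atp6ap1 at 102 ± 8.24 CPM per kilobase, lay within their spread of it.

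Atp6v1a, the catalytic A subunit, stood at 39.3, 27.6, 29.6, 35.8 and 38.7 CPM in GFP replicates 1 to 5 and at 49.7, 44.3, 41.3, 53.1 and 54.6 with ATF4. The DDIT3 values were 40.2, 29.8, 29.6, 41.6 and 36.6 CPM. All ATF4 libraries lay above all GFP libraries (log2 fold change 0.51 ± 0.13, adjusted p = 0.00741), and the lowest of them, ATF4 replicate 3, lay just under the highest DDIT3 library (ATF4 against DDIT3 0.45 ± 0.13, adjusted p = 0.0143). Atp6v1d, part of the rotor shaft, was 149.8, 168, 158, 144 and 158 CPM in GFP, 124, 116, 149.8, 128 and 130.5 with ATF4 and 164, 170.5, 161, 156 and 163 with DDIT3. The ATF4 and GFP values overlapped, and the lower call (log2 fold change -0.26 ± 0.08, adjusted p = 0.0248) was lost without ATF4 replicate 1 (adjusted p = 0.0590), ATF4 replicate 2 (0.0502) or GFP replicate 2 (0.0573). It was also lost with no filter on low counts (0.0551) and in a fit of the 10 libraries compared (0.0514). Against DDIT3 the groups did not overlap (-0.33 ± 0.08, adjusted p = 0.00612).

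The remaining V1 subunits were not called in ATF4 against GFP. Their log2 fold changes were -0.28 ± 0.18, adjusted p = 0.253 for Atp6v1b2, the B subunit, and 0.04 ± 0.11, adjusted p = 0.792 for Atp6v1c1, a stalk subunit. Atp6v1e1, the most abundant pump transcript per length in all groups, gave 0.09 ± 0.11, adjusted p = 0.567. Values for the other rotor subunit, Atp6v1f, and for the stalk subunit Atp6v1g1 were -0.14 ± 0.13, adjusted p = 0.436 and -0.12 ± 0.14, adjusted p = 0.528. The second G isoform, Atp6v1g2, best known from neurons, was near 4.14 CPM in GFP and 6.32 in ATF4 (0.60 ± 0.26, adjusted p = 0.0861), where it made up 4.95 ± 2.22% and 8.07 ± 3.20% of G transcripts per length. Summed over its 13 genes, V1 reached 807 ± 60.9 CPM in GFP (716 to 881), 953 ± 94.1 in ATF4 (820 to 1053) and 857 ± 63.6 in DDIT3 (787 to 946), so that the ranges overlapped. Atp6v1h is part of that sum, at 43.7 ± 2.79 CPM in GFP and 227 ± 22.8 in ATF4. Its mean rose by more than the mean of the sum did.

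Isoforms typical of kidney, bone or testis were scarce. Atp6v1b1, Atp6v1e2 and Atp6v1g3 had no count in any library, and Atp6v1c2 had at most 2. The ubiquitous forms therefore supplied nearly all transcripts of their subunits: Atp6v1b2 and Atp6v1e1 100% of B and E per length, and Atp6v1c1 99.8% to 99.9% of C on average in each group.

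The V0 sector holds the a subunit, through which protons enter and leave, the ring of c subunits with the related c'' (Atp6v0b), the d subunit that joins the ring to the V1 rotor, and the small e subunit. Of 9 V0 genes 6 were tested, and 4 were called higher in ATF4 against GFP and none lower: Atp6v0d1, Atp6v0e, Atp6v0e2 and Atp6v0a1. Over all tested genes 16.5% were called higher and 15.6% lower. Atp6v0d1 stood at 38.8, 54.9, 42.1, 43.1 and 45.4 CPM in GFP replicates 1 to 5, at 64.8, 59.2, 62.7, 61.9 and 62.9 with ATF4 and at 54.96, 53.7, 52.4, 57.3 and 56.7 with DDIT3. The 5 ATF4 values lay within a narrow band above all GFP values (0.47 ± 0.09, adjusted p = 0.000873) and, without a call, above all DDIT3 values (0.18 ± 0.09, adjusted p = 0.151). DDIT3 against GFP gave 0.29 ± 0.09, adjusted p = 0.212 for this gene.

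Atp6v0e2, the scarcer e isoform, was 7.11, 6.12, 9.34, 7.24 and 5.06 CPM in GFP, 13.3, 14.1, 12.5, 14.3 and 8.13 with ATF4 and 12.2, 11.9, 14.96, 10.3 and 11.99 with DDIT3. It was called higher in ATF4 (0.83 ± 0.19, adjusted p = 0.00216), with overlapping values. The common isoform Atp6v0e was also higher (0.38 ± 0.11, adjusted p = 0.0159) and supplied 87.1% to 93.5% of e transcripts per length in ATF4 libraries, against 90.7% to 94.3% in GFP. Atp6v0a1, the main a isoform of this table, was called at the edge of the threshold (0.28 ± 0.10, adjusted p = 0.045). That call was lost in 15 of 21 alternative analyses, among them without any 1 of ATF4 replicates 1, 3, 4 and 5, GFP replicates 1, 2, 3 and 4, and DDIT3 replicates 2, 3 and 4 (adjusted p = 0.0533 to 0.111). Atp6v0a2 (-0.07 ± 0.18, adjusted p = 0.784) and the c'' gene Atp6v0b (-0.01 ± 0.12, adjusted p = 0.945) were not called.

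Atp6v0a1 supplied 57.7 ± 4.35% of the transcripts per length of a1, a2 and a4 in GFP, 63.5 ± 3.88% in ATF4 and 56.4 ± 2.63% in DDIT3, and Atp6v0a2 nearly all the rest. A further a isoform, a3, is encoded by Tcirg1, a gene outside the name rule that is known for acid secretion by osteoclasts. Tcirg1 stood at 6.66 ± 2.07 CPM in GFP and 11.3 ± 2.77 in ATF4 (0.75 ± 0.25, adjusted p = 0.0269), with overlapping libraries. The call on Tcirg1 was lost without ATF4 replicate 1 (0.0769) or 2 (0.0586) or GFP replicate 4 (0.0649) or 5 (0.0670).

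Atp6v0c, the gene of the main ring subunit, could not be tested. It had 4, 1, 1, 4 and 1 counts in GFP replicates 1 to 5, 1, 2, 1, 4 and 6 with ATF4 and 3, 1, 3, 3 and 4 with DDIT3. GENCODE annotates 2 processed copies of Atp6v0c, and reads shared with copies can be lost in counting, so these low counts are uncertain as a measure of its RNA. Atp6v0c-ps2 had no count, Atp6v0d2 at most 1 and Atp6v0a4 at most 1 in any library.

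The accessory proteins, which help the pump assemble and reach its membrane, were not called in any comparison. Atp6ap2, the prorenin receptor, was 24.5, 23.6, 23.1, 23.2 and 23.4 CPM in GFP, 24.9, 26.2, 23.8, 30.9 and 33.1 with ATF4 and 25.5, 21.8, 20.99, 25.2 and 27.6 with DDIT3. Those values overlapped (ATF4 against GFP 0.24 ± 0.12, adjusted p = 0.126). Atp6ap1, which encodes the Ac45 protein, was 222 ± 16.5 CPM in GFP and 224 ± 18.1 in ATF4 (0.01 ± 0.09, adjusted p = 0.932). Atp6ap1l, a gene related to Atp6ap1, had 1 to 15 counts and was not tested.

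**Figure D2:**
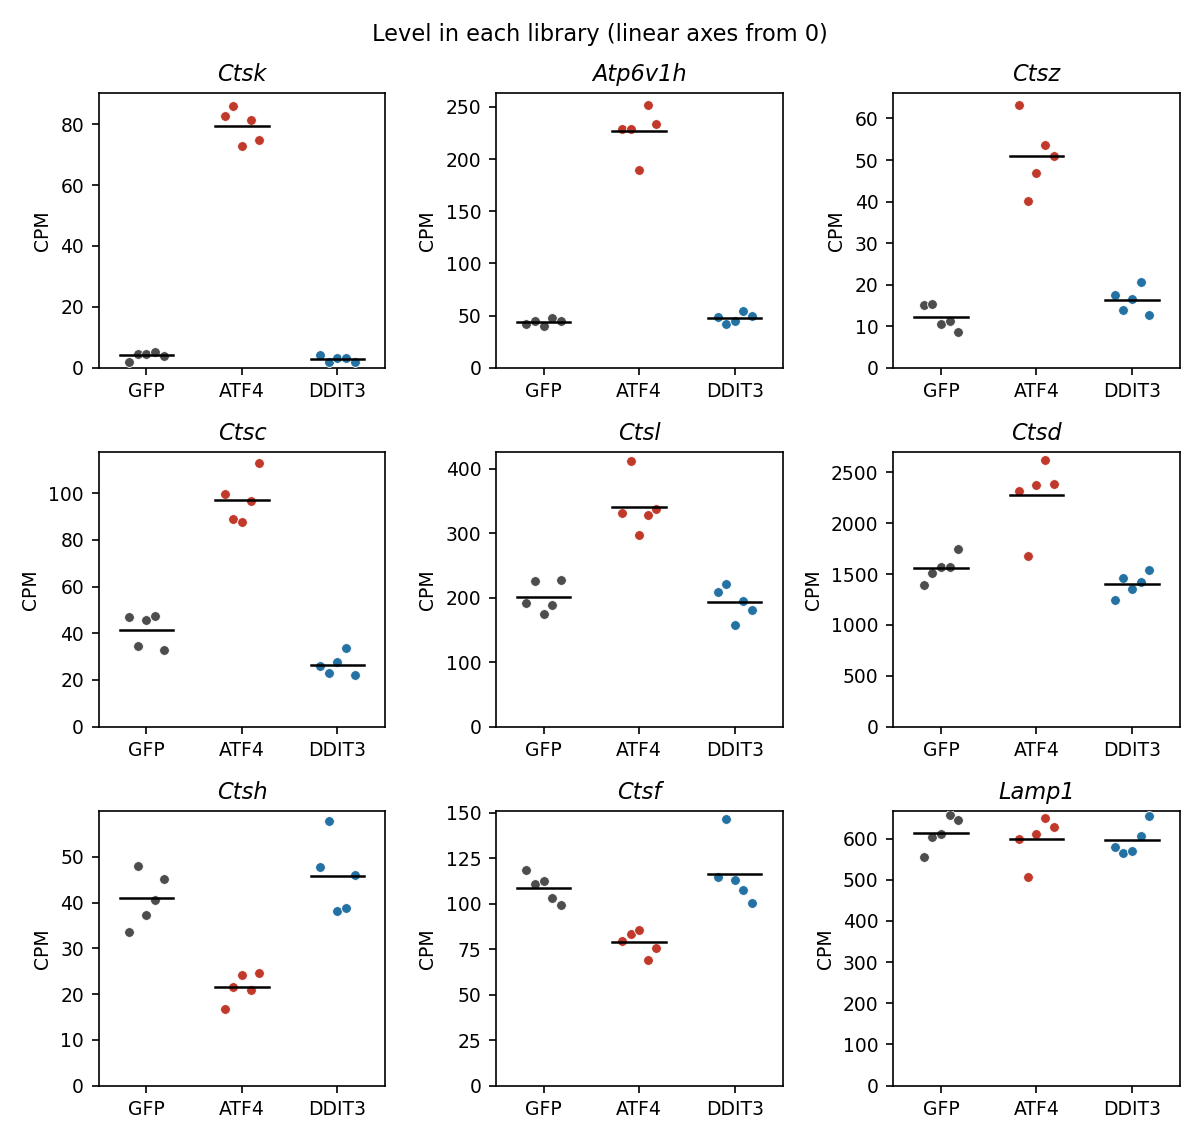
CPM of 9 pump, cathepsin and LAMP genes (y axes from 0) in each library, by vector group (x axis), with the group mean as a line. The 5 ATF4 libraries stand above all others for Ctsk, Atp6v1h, Ctsz, Ctsc and Ctsl and below all others for Ctsh and Ctsf, and the groups overlap for Lamp1.

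The largest difference of all 29 genes was that of a cathepsin, Ctsk. Of 12 cathepsin genes 10 were tested, and in ATF4 against GFP 5 were higher (Ctsk, Ctsz, Ctsc, Ctsl and Ctsd), 2 were lower (Ctsh and Ctsf) and 3 were not called (Ctsa, Ctsb and Ctso). The shares of all tested genes were 16.5% higher and 15.6% lower. Cathepsin K is a cysteine protease that cuts collagen and elastin and is best known from osteoclasts. Ctsk (chr3:95499256-95509362, plus strand, mm10) stood at 2.01, 4.56, 4.44, 5.27 and 3.79 CPM in GFP replicates 1 to 5. The ATF4 libraries held 82.7, 85.9, 72.8, 81.5 and 74.7 CPM, and the DDIT3 libraries 4.12, 1.94, 3.26, 3.12 and 1.89. The lowest ATF4 library was far above the highest of the other 10, with a fitted factor of 19.7 over GFP (4.30 ± 0.21, adjusted p = 1.43e-11) and 27.4 over DDIT3 (4.77 ± 0.21, adjusted p = 5.19e-12).

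Cathepsin Z removes single residues from the carboxyl end of proteins. Ctsz (chr2:174427493-174439039, minus strand) was 15.2, 15.4, 10.6, 11.3 and 8.53 CPM in GFP, 63.3, 40.2, 46.9, 53.5 and 51.05 with ATF4 and 17.6, 13.9, 16.6, 20.6 and 12.7 with DDIT3. All ATF4 libraries exceeded all others (4.16-fold over GFP, 2.06 ± 0.18, adjusted p = 6.1e-08). Ctsz borders Nelfcd, which the table lists under its older symbol Th1l and which had 412 to 751 counts per library, so that reads at their shared end are uncertain without strand. Cathepsin C cuts dipeptides from the amino end and activates serine proteases of granules in blood cells. Ctsc was 46.8, 34.4, 45.8, 47.3 and 32.9 CPM in GFP, 99.5, 89.1, 87.8, 96.8 and 113 with ATF4 and 26.03, 23.03, 27.6, 33.7 and 22.2 with DDIT3. Here ATF4 lay above GFP without overlap (1.23 ± 0.13, adjusted p = 1.56e-06), and DDIT3 lay mostly below GFP.

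Cathepsin D, the main aspartic protease of lysosomes, was the most abundant cathepsin per length in every group. Ctsd stood at 1397, 1509, 1567, 1568 and 1745 CPM in GFP replicates 1 to 5, 2321, 1675, 2376, 2627 and 2386 with ATF4 and 1245, 1458, 1349, 1421 and 1539 with DDIT3. ATF4 replicate 2 fell within the GFP range and the other 4 ATF4 libraries above it (0.55 ± 0.11, adjusted p = 0.000954). Cathepsin L, a cysteine protease that cuts within proteins, was 192, 225, 174, 188 and 228 CPM in GFP, 332, 412, 297, 328 and 337 with ATF4 and 209, 221, 158, 194 and 181 with DDIT3. Its ATF4 libraries were all above the rest (0.76 ± 0.12, adjusted p = 7.01e-05), a fitted 1.69-fold difference.

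Moving the other way, Ctsh, a cysteine protease that mainly trims the amino end, was 33.5, 47.96, 37.4, 40.6 and 45.2 CPM in GFP, 16.7, 21.6, 24.2, 20.9 and 24.5 with ATF4 and 47.8, 57.8, 38.1, 38.9 and 46.1 with DDIT3. ATF4 was below both other groups without overlap, 1.90-fold under GFP (-0.92 ± 0.14, adjusted p = 7.85e-05). Ctsf, another cysteine cathepsin, was 119, 111, 112, 103 and 99.4 CPM in GFP, 79.6, 83.6, 85.8, 69.3 and 75.8 with ATF4 and 115, 147, 113, 107 and 100.5 with DDIT3. It too fell in ATF4 without overlap (-0.47 ± 0.11, adjusted p = 0.0025).

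Cathepsin B, which cuts both within proteins and at their carboxyl end, was 734, 663, 773, 829 and 786 CPM in GFP, 672, 414, 711, 788 and 739 with ATF4 and 778, 633, 790.0, 830.2 and 779 with DDIT3. The groups overlapped and no call was made (-0.19 ± 0.14, adjusted p = 0.322). Ctsa, the serine carboxypeptidase that also stabilises lysosomal sialidase and galactosidase, gave -0.03 ± 0.08, adjusted p = 0.816 with a mean of 203 ± 10.96 CPM in GFP and 199 ± 4.20 in ATF4. Ctso, a cysteine cathepsin, gave 0.30 ± 0.14, adjusted p = 0.103, and was called higher without GFP replicate 2 (adjusted p = 0.0294). Ctss, a cysteine protease of antigen-presenting cells, had 16, 7, 8, 10 and 5 counts in GFP, 8, 7, 10, 9 and 10 with ATF4 and 7, 5, 9, 5 and 6 with DDIT3 and was too scarce to test, and Ctse had no count.

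These shifts changed the order of the cathepsins. Per kilobase, GFP libraries had Ctsd first at 797 ± 64.3 CPM per kilobase, then Ctsb at 159.6 ± 13.2 and Ctsl at 102 ± 12.2, and Ctsk came last of the 10 at 2.71 ± 0.834. Ctsa and Ctsf, the 4th and 5th, did not differ beyond their spread in GFP. With ATF4, Ctsd stayed first at 1165 ± 182, Ctsl at 173 ± 21.7 stood above Ctsb at 140.2 ± 30.9, with overlapping spreads, and Ctsk moved to 5th place at 53.6 ± 3.75, level with Ctsa at 54.3 ± 1.14. DDIT3 libraries kept Ctsd, Ctsb and Ctsl as the first 3 and Ctsk as the last, at 1.93 ± 0.640.

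Summed over the 12 cathepsin genes, CPM reached 2947 ± 159 in GFP (2754 to 3166), 3835 ± 468 with ATF4 (3045 to 4287) and 2803 ± 91.4 in DDIT3 (2684 to 2911). Ctsd alone made up 52.8 ± 1.59% of that sum in GFP, 59.1 ± 2.43% in ATF4 and 49.97 ± 2.54% in DDIT3. For all its fold change, Ctsk supplied 2.11 ± 0.413% of the cathepsin sum in ATF4, from 0.136 ± 0.0405% in GFP.

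**Figure D3:**
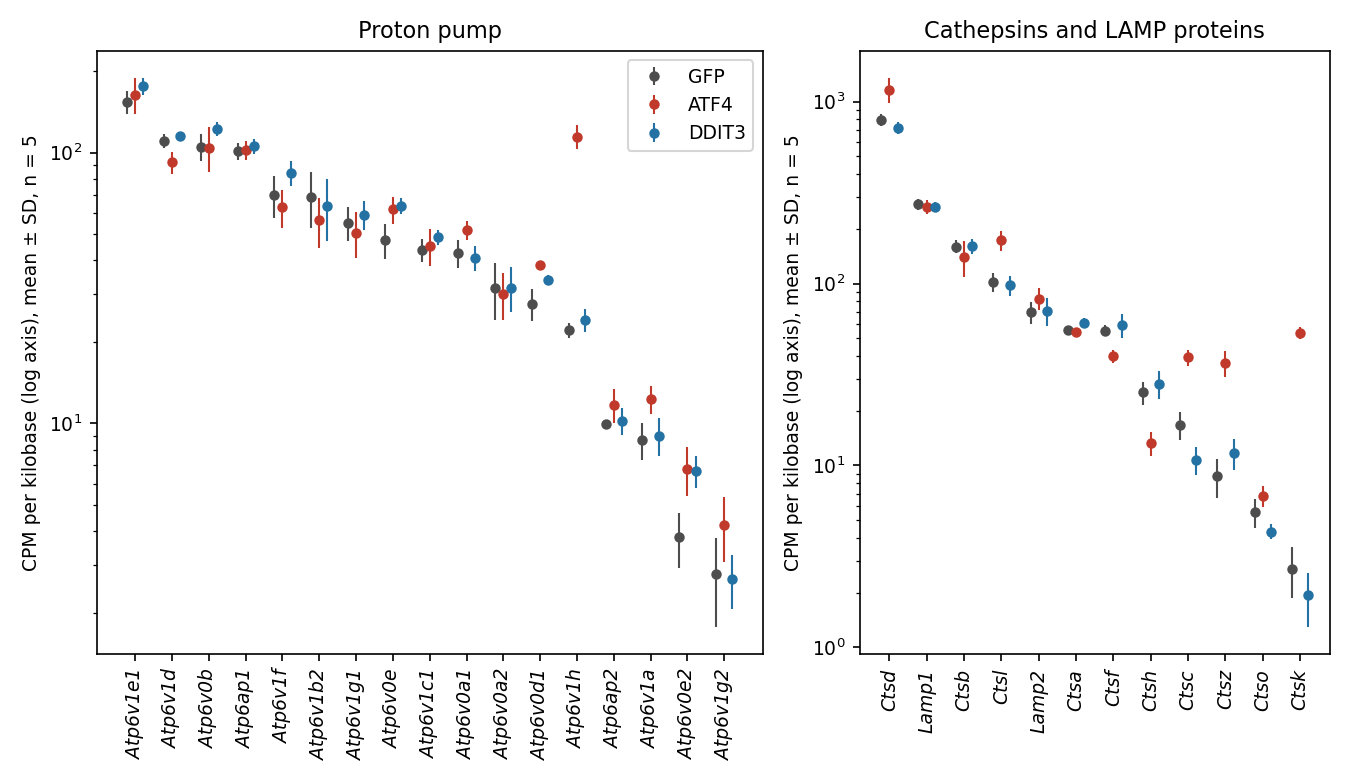
Mean level of each tested gene (x axis) in CPM per kilobase of deposited gene length (y axis, log scale) in the 3 vector groups, with SD over 5 libraries, for pump genes and for cathepsin and LAMP genes. Ctsk moves from the last place among cathepsins in GFP, 2.71, to 53.6 in ATF4, and Atp6v1h from 22.1 to 115.

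Cathepsins are abundant in macrophages, so markers of other cells were read beside them. The 16 macrophage and leukocyte markers in the table summed to 29.1 to 43.3 CPM in GFP, 20.4 to 40.2 in ATF4 and 21.6 to 39.2 in DDIT3, with Ccr2 at 0 in every ATF4 library. None of the 9 tested was called in any comparison (Adgre1, also listed, was not analysed here), and the sums of the 3 groups overlapped. The 14 endothelial markers did move with ATF4: 12 were called higher than in GFP, as were 16.5% of all tested genes. Their sum was 521 to 1037 CPM in GFP, 1181 to 1713 in ATF4 and 505 to 849 in DDIT3.

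Fibroblast markers summed to 401 to 889 CPM in GFP, 506 to 1080 in ATF4 and 325 to 622 in DDIT3, with 2 of 12 tested called higher in ATF4 (Ddr2 and Postn) and 1 lower (Fbln1). Of 10 tested pericyte and smooth muscle markers 5 were higher and none lower, with a median log2 fold change of 0.51. Over all tested genes 16.5% were called higher and 15.6% lower. The sum of this list was 3803 to 4327 CPM in GFP and 3715 to 4595 in ATF4. The most abundant genes weigh most in such a sum. It therefore neither shows the 5 rises nor measures the amount of these cells. Of 10 cardiomyocyte markers 5 were lower in ATF4, with sums of 110600 to 153400 CPM in GFP and 89290 to 105400 in ATF4. The part of these markers in the cathepsin and pump results was not tested.

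**Figure D4:**
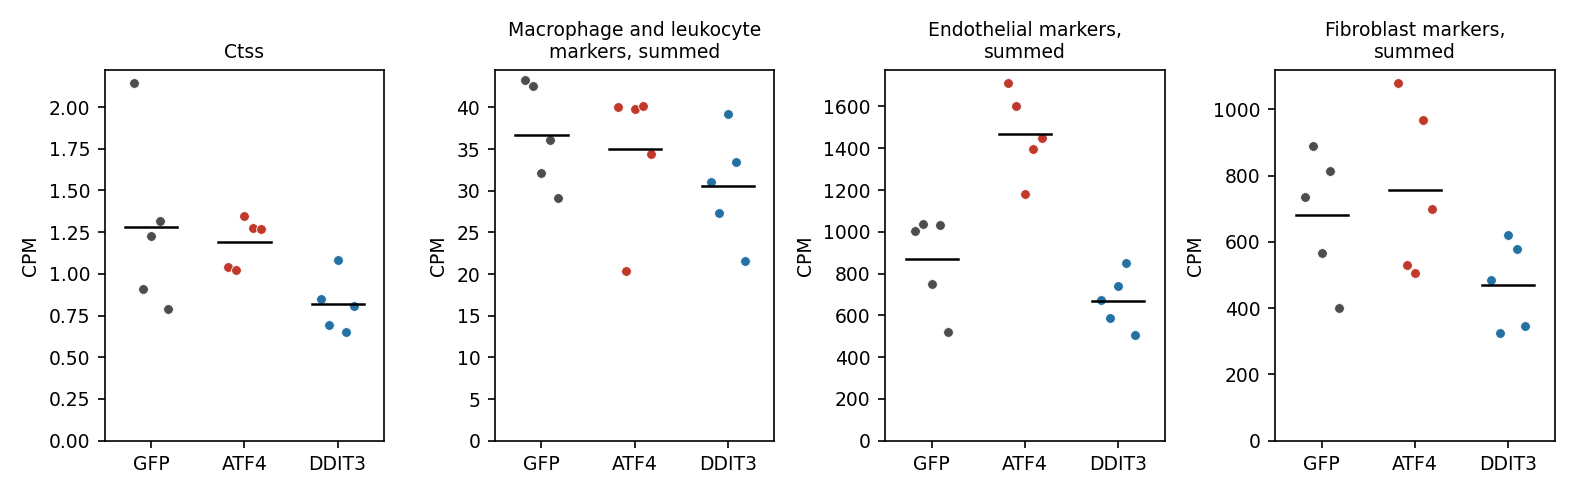
CPM of Ctss and summed CPM of 3 marker lists (y axes from 0) in each library, by vector group (x axis), with the group mean as a line. Macrophage and leukocyte sums overlap across the 3 groups (20.4 to 43.3 CPM), and endothelial sums in ATF4 (1181 to 1713) lie above those of GFP and DDIT3.

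Promoter sequences are given for 5 of these genes to set the strongest rises beside promoters that hold the letters of interest. Of the 40 genes 29 were matched by symbol in a RefSeq promoter table (GRCm38.p6), with 33 windows, each the 250 bases before a RefSeq transcription start. The windows were searched on both strands for the palindromic E-box CACGTG, the core of sites bound by TFEB and TFE3, and for TGATGNAA, an element bound by ATF4 with C/EBP partners; no match of one overlapped a match of the other. Capitals mark the matches, and sequences run 5′ to 3′ toward the gene.
Ctsk, chr3:95498960-95499209, plus strand: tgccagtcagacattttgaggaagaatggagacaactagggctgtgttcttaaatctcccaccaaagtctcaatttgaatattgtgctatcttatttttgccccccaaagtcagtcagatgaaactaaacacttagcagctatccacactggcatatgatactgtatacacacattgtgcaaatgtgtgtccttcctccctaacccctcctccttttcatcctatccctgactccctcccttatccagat
Ctsz, chr2:174439040-174439289, minus strand: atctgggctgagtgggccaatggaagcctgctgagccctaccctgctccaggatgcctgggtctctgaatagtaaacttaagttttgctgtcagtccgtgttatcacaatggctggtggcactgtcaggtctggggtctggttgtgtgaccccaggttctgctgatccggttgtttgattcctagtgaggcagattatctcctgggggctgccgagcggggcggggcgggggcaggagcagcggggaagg
Ctsc, chr7:88277835-88278084, plus strand: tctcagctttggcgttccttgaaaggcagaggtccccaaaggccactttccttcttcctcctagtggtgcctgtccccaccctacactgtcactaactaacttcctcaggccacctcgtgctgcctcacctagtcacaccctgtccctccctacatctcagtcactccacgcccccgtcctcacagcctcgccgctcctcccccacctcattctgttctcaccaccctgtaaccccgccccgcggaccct
Atp6v0d1, chr8:105566065-105566314, minus strand: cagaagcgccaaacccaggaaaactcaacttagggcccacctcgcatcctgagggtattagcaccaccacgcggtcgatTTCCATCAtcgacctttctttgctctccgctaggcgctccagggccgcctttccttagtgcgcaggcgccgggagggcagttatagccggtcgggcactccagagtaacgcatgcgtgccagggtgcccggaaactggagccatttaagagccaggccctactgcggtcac
Lamp1, chr8:13158911-13159160, plus strand: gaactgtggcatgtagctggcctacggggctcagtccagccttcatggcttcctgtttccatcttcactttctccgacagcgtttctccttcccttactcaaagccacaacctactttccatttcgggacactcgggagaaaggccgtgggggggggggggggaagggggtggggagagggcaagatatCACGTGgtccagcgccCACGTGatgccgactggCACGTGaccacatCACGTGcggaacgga
Windows of Ctsk, Ctsz and Ctsc, 3 of the 4 genes with the largest rises in ATF4, held neither motif. Atp6v0d1, called higher in ATF4, holds TTCCATCA, the ATF4-C/EBP element read on the other strand, whose first base lies 171 bases before the start. Lamp1, not called in any comparison, holds 4 E-boxes, 61, 45, 28 and 15 bases before its start.

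Across the 33 windows CACGTG was found in 7 (Atp6v0b, Atp6v1a, Ctsa, Ctsd, Ctsf, Ctsl and Lamp1), beside 6.02% of all 32851 promoter windows of 250 bases. Of these 7 genes, Atp6v1a, Ctsd and Ctsl were called higher in ATF4, Ctsf lower, and Atp6v0b, Ctsa and Lamp1 neither. TGATGNAA was found in 2 (Atp6v0d1 and Ctsl), beside 3.45% of all windows. Ctsl held both motifs, with TGATGNAA 153 and CACGTG 236 bases before its RefSeq start. Some windows with matches overlap GENCODE exons of the same gene. Of 250 bases these covered 211 for Ctsd, 164 for the Ctsa window with CACGTG and 94 for Atp6v1a. They covered 48 for Ctsl, 35 for Ctsf and 4 for Atp6v0b, and none in the windows printed above. The Ctsl, Atp6v1a and matching Ctsa windows lie wholly inside the GENCODE genes, so their matches are upstream of the RefSeq start only. Such matches describe letters in a window and not binding, and Atp6v1h, Ctsb and Ctsh were among the 11 genes with no entry.

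Neither LAMP gene was called in any comparison of the main test. With replicate numbers fitted as a block, Lamp2 passed as higher in ATF4 against GFP (adjusted p = 0.0206) and against DDIT3 (0.0313). Lamp1 was 554, 604, 610.2, 658 and 644 CPM in GFP replicates 1 to 5, 598, 507, 611, 649 and 628 with ATF4 and 580.0, 566, 571, 606 and 654 with DDIT3. The 3 groups overlapped, with -0.04 ± 0.09, adjusted p = 0.783 in ATF4 against GFP. Lamp2 was 262, 286, 258, 269 and 356 CPM in GFP, 313, 331, 282, 378 and 396 with ATF4 and 311, 299, 228, 258 and 360.2 with DDIT3. Again the groups overlapped (0.25 ± 0.13, adjusted p = 0.159), with GFP replicate 5 as the highest GFP library. Lamp2, Atp6ap1 and Atp6ap2 lie on the X chromosome.

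In DDIT3 against GFP the 2 calls were Atp6v0e2, higher, and Ctsc, lower, and 7 of the 29 genes had an unadjusted p below 0.05, beside 1147 of all 11814 tested genes. Atp6v0e2 rose 1.76-fold (0.82 ± 0.18, adjusted p = 0.0454), with every DDIT3 library above every GFP library. Its call was kept in 8 of 21 alternatives and lost without any 1 of DDIT3 replicates 1, 2, 3 and 5, GFP replicates 1, 2, 4 and 5, and ATF4 replicates 1, 3 and 4 (adjusted p = 0.0526 to 0.116), in a fit of the 10 libraries compared (0.0582) and with sex as a factor (0.0621). Ctsc fell (-0.64 ± 0.14, adjusted p = 0.0323), 1.56-fold, with overlapping libraries. The fall was kept in 13 of 21 alternatives and lost without any 1 of DDIT3 replicates 1, 2, 3 and 5 and GFP replicates 1, 3 and 4 (0.0651 to 0.0987) and in the fit of 10 libraries (0.0686).

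Atp6v0e, the other e isoform, also stood higher in every DDIT3 library than in any GFP library without passing the test (0.42 ± 0.11, adjusted p = 0.11). It passed with DESeq2 (adjusted p = 0.0430) and when replicate numbers were fitted as a block (0.0240), and either took the higher calls from 1 to 2. Among the remaining genes the values for Ctsk (-0.47 ± 0.24, adjusted p = 0.551), Ctsz (0.41 ± 0.18, adjusted p = 0.447) and Ctso (-0.36 ± 0.14, adjusted p = 0.346) were not called. The same holds for Atp6v1h (0.13 ± 0.10, adjusted p = 0.769) and Ctsd (-0.15 ± 0.11, adjusted p = 0.745). Both factors were compared with the same GFP libraries, so that Ctsc, at 1.23 with ATF4 and -0.64 with DDIT3, and Atp6v0e2, at 0.83 and 0.82, are given side by side only.

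Set directly against DDIT3, the ATF4 libraries had 9 of 29 genes higher and 4 lower, where 17.8% and 16.0% of all tested genes were called, with a median log2 fold change of 0.01. The higher genes were Ctsk, Atp6v1h, Ctsc (1.87 ± 0.14, adjusted p = 6.96e-09), Ctsz (1.65 ± 0.17, adjusted p = 8.19e-07), Ctsl (0.83 ± 0.12, adjusted p = 2.89e-05), Ctsd (0.70 ± 0.11, adjusted p = 9.74e-05), Ctso (0.66 ± 0.14, adjusted p = 0.00123), Atp6v1a and Atp6v0a1 (0.34 ± 0.10, adjusted p = 0.0165). The lower ones were Ctsh (-1.08 ± 0.14, adjusted p = 1.34e-05), Ctsf (-0.56 ± 0.11, adjusted p = 0.000492), Atp6v1d and Atp6v1f (-0.42 ± 0.13, adjusted p = 0.0194). Thus 6 of 10 tested cathepsins were higher with ATF4 than with DDIT3 and 2 lower, as against 3 higher and 2 lower of 17 tested pump genes.

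Some of these calls turned on 1 library. That on Atp6v0a1 was lost without DDIT3 replicate 1 (adjusted p = 0.0532), and that on Atp6v1f without ATF4 replicate 1 (0.0567) or DDIT3 replicate 4 (0.0507). Atp6v0b would be called lower without ATF4 replicate 3 (0.0367), and Ctsa (-0.16 ± 0.08, adjusted p = 0.126) lower with DESeq2 (0.0316). Atp6v1g2 (0.65 ± 0.26, adjusted p = 0.0613) would be called higher without ATF4 replicate 4 (0.0399), DDIT3 replicate 1 (0.0473) or GFP replicate 5 (0.0418). With the replicate block both Atp6v1g2 (0.0259) and Lamp2 (0.0313, against 0.21 without it) passed as higher.

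Other genes of the lysosome, taken from 7 lists of 136 genes outside the name rule, were read beside them. Of 122 tested, 19 (15.6%) were higher and 17 (13.9%) lower in ATF4 against GFP, close to the shares of all tested genes. Of the same 122, 1 was higher (0.82%) and none lower in DDIT3 against GFP, beside 0.525% and 0.339% of all tested genes. In ATF4 against DDIT3 14 were higher (11.5%) and 20 lower (16.4%), beside 17.8% and 16.0% of all tested genes. Among 39 soluble hydrolases and activators 8 were higher and 4 lower with ATF4. Scpep1, a serine carboxypeptidase, rose from 11.6 ± 1.75 to 33.7 ± 2.42 CPM (1.54 ± 0.13, adjusted p = 4.32e-08), and Fuca1, which removes fucose, from 28.4 ± 4.25 to 46 ± 2.72 (0.70 ± 0.12, adjusted p = 0.000203). Smpd1, the acid sphingomyelinase, fell from 339.5 ± 29.5 to 203 ± 30.6 CPM (-0.74 ± 0.11, adjusted p = 6.14e-05).

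Of 33 tested membrane proteins, channels and transporters, 3 were higher and 3 lower with ATF4. Tpcn2, an endolysosomal cation channel, rose from 1.64 ± 0.295 to 3.80 ± 0.501 CPM (1.21 ± 0.26, adjusted p = 0.00159). Slc37a2, a sugar phosphate exchanger, fell (-1.21 ± 0.25, adjusted p = 0.00123), as did Laptm4b (-0.60 ± 0.13, adjusted p = 0.0017). Of 12 pump genes and regulators outside the name rule, 2 were higher (Tcirg1, above, and Rnasek, a small pump-associated protein, 0.53 ± 0.11, adjusted p = 0.000928) and 1 was lower. The lower one, Dmxl1, a pump assembly factor (-0.64 ± 0.23, adjusted p = 0.0427), lost its call without any 1 of ATF4 replicates 1, 3 and 4 and GFP replicate 4, and was -0.34 (adjusted p = 0.161) without GFP replicate 5. It was also lost with no filter (0.0554), in the fit of 10 libraries (0.0650) and with sex as a factor (0.0823).

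The transcription factors of lysosomal genes were not alike. Tfe3 rose from 18.6 ± 2.35 to 31.6 ± 1.80 CPM (0.77 ± 0.13, adjusted p = 0.000185) with no overlap between libraries. Tfeb was 56.5 ± 4.38 CPM in GFP and 46.3 ± 3.22 in ATF4, just outside the threshold (-0.29 ± 0.11, adjusted p = 0.0576), and passed as lower without DDIT3 replicate 1, 2 or 5 or GFP replicate 2 (0.0458 to 0.0497), with DESeq2 (0.0451) and in a fit of the 10 libraries compared (0.0418). Mitf was called lower (-0.75 ± 0.28, adjusted p = 0.0471) but was -0.46 (adjusted p = 0.165) without GFP replicate 5, and the call was lost without any 1 of 9 other libraries as well: ATF4 replicates 1, 2, 4 and 5, DDIT3 replicates 1 and 4 and GFP replicates 1, 3 and 4. It was also lost with no filter (0.0873) and with sex as a factor (0.0814).

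Of 15 tested genes of mTORC1 docking, the step that ties growth signalling to the lysosome surface, 1 was higher and 3 were lower. Rheb, the activator of mTORC1, rose from 113 ± 18 to 175 ± 15.3 CPM (0.64 ± 0.12, adjusted p = 0.00067). The Rag GTPase genes Rragb (-0.75 ± 0.23, adjusted p = 0.02) and Rragd (-0.65 ± 0.21, adjusted p = 0.0261) fell, and their calls were lost without GFP replicate 1 for Rragb (0.0508) and without ATF4 replicate 3 (0.0602) or GFP replicate 2 (0.0523) or 5 (0.0816) for Rragd. Lamtor1, Lamtor4 and Lamtor5 were not analysed here.

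Delivery of enzymes to the lysosome gave 3 higher and 4 lower of 15 tested. Ap1s1, a subunit of the AP-1 adaptor (0.56 ± 0.12, adjusted p = 0.00157), and Gnptg, part of the enzyme that tags hydrolases with mannose phosphate (0.60 ± 0.16, adjusted p = 0.00662), rose. Sort1, the sorting receptor sortilin, fell (-0.61 ± 0.15, adjusted p = 0.00604). Of 4 tested cathepsin inhibitors, Serpinb6a, an intracellular protease inhibitor, rose (0.71 ± 0.11, adjusted p = 6.47e-05). Cst3, the secreted inhibitor cystatin C, fell from 714 ± 106 to 473 ± 79.6 CPM (-0.59 ± 0.12, adjusted p = 0.00115), while its relative Cstb was not called (0.35 ± 0.15, adjusted p = 0.0874; 0.0447 without ATF4 replicate 2). In DDIT3 against GFP the single call was Gm2a, the activator of ganglioside breakdown, at 37.2 ± 2.85 CPM in GFP and 56.7 ± 10.1 in DDIT3 (0.61 ± 0.12, adjusted p = 0.0154), lost without GFP replicate 3 (0.0552).

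The authors' deposited tables of ATF4 and DDIT3 against GFP gave an adjusted p for 32 of the 40 genes. At 0.05 the authors' deposited table called 10 higher and 3 lower with ATF4, and 13 genes were called in the same direction there and in the edgeR test. For DDIT3 the authors' deposited table called 2 higher and 1 lower, of which 2 were shared.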

How the data were processed

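All results but those credited to the authors' tables rest on the counts per gene that the authors deposited for 23337 genes and 15 libraries. STAR, featureCounts, DESeq2, DESeq and the build mm10 are named in the submitters' processing notes, and versions are not given in the sources used here. CPM per kilobase used the gene length in bases (an other unit) that the authors deposited. These lengths were not checked against transcripts, and the orders between genes and the isoform shares per length depend on them. The authors' tables of comparisons hold, per the file headers, a mean normalised signal, a log2 fold change, a test score and p-values, and were used only where named. PolyA RNA was amplified with a SMART-Seq v4 kit and tagged with Nextera XT, per the labels' protocols.

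Counts were tested with edgeR 4.0.16 in R 4.3.3 (robust quasi-likelihood, TMM factors, filterByExpr, all 15 libraries fitted together by group, leaving 12 residual degrees of freedom), adjusted by Benjamini-Hochberg over 11814 genes, with a threshold of 0.05. The filter removed 11523 genes. CPM use TMM factors. Groups and replicate numbers came from the titles. Whether each library is its own animal is not said, and p-values therefore cover only the spread of these samples, which may be technical. Libraries of 1 group differed beyond counting noise (chi-square per degree of freedom 8.60 to 50.4), so none was counted as a copy. Counts of 0 to 3 lie at the floor and gave no fold.

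Same-numbered libraries deviated together for DDIT3 and GFP (correlations 0.246 to 0.569) and for ATF4 and DDIT3 (0.128 to 0.515), all above 0.1. For ATF4 and GFP 4 of 5 correlations were above 0.1 (0.0857 to 0.435). By this cut the first 2 comparisons passed as paired and pairing was not established in the third. Numbers that pair samples in 2 of these comparisons would pair them in the third too, so the cut does not settle pairing. The main tests used no pairing in any comparison. No label says what a number marks. Gene positions came from GENCODE M21 and promoters from RefSeq. Alternatives were DESeq2 1.42.0, its size factors, no filter, only the libraries compared, a replicate block, sex as a factor and each library left out. The procedure was tested on simulated data with 200 of 11814 genes changed in ATF4 against GFP. It called 24% of genes changed 1.5-fold, 72% of those changed 2-fold, 98% at 4-fold and 100% at 8-fold, with 7 false calls. In the real comparison 3801 genes were called, so these shares may not carry over to it.

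The 40 genes and all lists were chosen with earlier results of these data known. Gba2 and Spink4 were removed from the lists as wrongly placed and Gpnmb was moved to the membrane list before their values were read. Library values are printed for the called genes with the largest changes (up to 4 a direction for ATF4 against GFP, 2 for the others) and 10 set genes, and of each other list the 3 genes with the lowest p. Gm2a, the marker genes named and the genes of the closing observation were named after their values were seen.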

Additional observations from a re-analysis of the deposited data

Results flagged for a closer look

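In 4 of 87 groups of 5 libraries (29 genes in 3 groups), 1 library stood far from the other 4 by Dixon's criterion, which chance gives in about 1 group in 20. Atp6v0b was 134.4 CPM in DDIT3 replicate 1, where the others lay between 116.0 and 120.1. Ctsa was 206.6 CPM in ATF4 replicate 3, with the others at 195.6 to 198.5. Ctsb was lowest in DDIT3 replicate 2, at 633.2 CPM, with the others at 778.0 to 830.2. Lamp2 was 356.1 CPM in GFP replicate 5, the library labelled SMART-Seq3 and 1 of the 4 female ones, with the others at 257.6 to 285.8. None of the 4 genes was called in any comparison of the main test.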

How the results depend on the processing

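Over 21 alternatives, of 609 values for the 29 genes in ATF4 against GFP 584 kept their side of the threshold, 20 lost their call and 5 gained one. Direction changed in 0 values that were called in either analysis. Values called in neither were counted as kept whatever their sign, and some changed sign. Atp6v0b in ATF4 against GFP was 1 of these (log2 fold change -0.01, and -0.11 to 0.06 over the alternatives). In DDIT3 against GFP the values kept, lost, gained and reversed were 586, 21, 2 and 0, and in ATF4 against DDIT3 599, 3, 7 and 0. Genes called in ATF4 against GFP numbered 12 to 14 with 1 library left out (14 with all), and 12 to 14 in ATF4 against DDIT3 (13 with all). In DDIT3 against GFP, where 2 were called, 0 to 2 were with 1 library left out (0 to 1 higher and 0 to 1 lower), 0 higher and 0 lower in a fit of the 10 libraries compared, and 1 in all (0 higher) with sex as a factor, while DESeq2 called 2 higher. Genes of the other lists called there, 1 in the main analysis, were 0 to 2 with 1 library left out (0 without GFP replicate 3, 2 without GFP replicate 2 or 5) and 3 with DESeq2. With the replicate block, 18 genes were called in ATF4 against GFP, where pairing was not established, since 1 of 5 correlations was under 0.1, although 8 of 10 libraries correlated best with their own number, as for ATF4 and DDIT3 (10 of 10 for DDIT3 and GFP); the added ones were Atp6v1b2, Atp6v1g2, Ctso and Lamp2, at adjusted p 0.0246, 0.0361, 0.0288 and 0.0206, and among list genes named, Tfeb (0.0125) and Cstb (0.0427) passed. The block gave 2 higher calls and 5 list genes in DDIT3 against GFP, 15 in ATF4 against DDIT3, and 52 and 45 list genes where 36 and 34 were called in the 2 ATF4 comparisons, and changed no other call among the 29. Depth limits Atp6v0c (1 to 6 counts) and Ctss (5 to 16 counts).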

Other observations

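Among the soluble hydrolases, 3 genes of glycolipid breakdown, picked out after their values were seen, were called higher in ATF4 than in GFP. Gla, the alpha-galactosidase lacking in Fabry disease, rose from 2.61 ± 0.749 to 5.37 ± 1.32 CPM (edgeR log2 fold change ± SE 1.05 ± 0.31, adjusted p = 0.0137). Arsa, which removes sulfate from sulfatide, rose from 11.6 ± 2.75 to 22.3 ± 3.64 (0.94 ± 0.20, adjusted p = 0.00146). Hexa, a hexosaminidase subunit, rose from 54.7 ± 6.75 to 77.5 ± 9.37 (0.50 ± 0.11, adjusted p = 0.0017). Psap, the precursor of the saposins that present some of these lipids to their enzymes, was called lower, at 1306 ± 212 CPM in GFP and 919.6 ± 95.6 in ATF4 (-0.51 ± 0.13, adjusted p = 0.00729), with overlapping libraries.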
